A study of Mus musculus with 2 samples.

Results

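The 3 mir-34 genes of the mouse, Mir34a, Mir34b and Mir34c, were described in microRNA sequencing of adrenal gland, which has a steroid-making cortex around a medulla that makes catecholamines. They were taken by their symbols from the 2202 miRNA genes counted, and all 3 were found. They were chosen by symbol with their measured CPM levels and the ratios between the libraries already known, so both are given as description, without a test. The series holds 1 group with 2 replicates: adrenal gland tissue of C57BL/6J mice, an inbred strain, labelled wild type (WT), with no treatment named. A free-text label says male, the field for sex says not collected, and age and stage are unknown. The replicates have separate biosample records but share 1 donor record, so nothing shows that they were separate animals, and any spread between them may be technical.

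Replicate 1 had 10263894 counts assigned to miRNA genes and replicate 2 had 3525666. Unmapped reads made up 13.8% and 41.4% of the libraries. Levels are in CPM, a gene's share of the assigned counts of its library times 1000000, and intervals on them are 95% Wilson intervals that cover counting error only. Mir375, a miRNA gene of neuroendocrine cells, stood at 68022 and 76044 CPM in replicates 1 and 2. No miRNA that defines the cortex was among the markers used.

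The mir-34 genes are known as direct transcriptional targets of the tumour suppressor p53. Their products repress cell-cycle and survival genes, among them Cdk6, Ccne2, Met and Bcl2. Mir34b and Mir34c are made from 1 locus, and with the related Mir449 genes they are also known for roles in multiciliated cells and in male germ cells. A miRNA hairpin yields up to 2 mature strands, one from its 5′ arm and one from its 3′ arm, and each finds its targets mainly through its seed, bases 2 to 8.

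The mature strands show which of these genes share a seed. The sequences are from RefSeq on GRCm38.p6, whose table held strands of all 3 Mir34 genes and of 2 of the 3 Mir449 genes. They are written 5′ to 3′ with the seed in capitals. The first set holds the 5′ strands.
mmu-miR-34a-5p: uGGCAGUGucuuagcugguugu
mmu-miR-34b-5p: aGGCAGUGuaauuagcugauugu
mmu-miR-449a-5p: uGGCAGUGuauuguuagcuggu
mmu-miR-449c-5p: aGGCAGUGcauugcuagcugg

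These 4 carried 1 seed, GGCAGUG. Beyond the seed they differed when aligned from the 5′ end without gaps. Compared base by base in this way, miR-34a-5p matched miR-34b-5p at 11 of 22 positions and miR-449a-5p at 15 of 22. A like stretch shifted by a base counts as unmatched here, and miR-34b-5p has 23 nt where miR-34a-5p has 22. These values therefore do not rank how alike the strands are. The RefSeq table had no entry for mmu-miR-34c-5p, so this strand is named only and entered no comparison of seeds. Whether it carries the same seed is therefore not shown here.

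By seed, the 3′ strands set the cluster apart from Mir34a.
mmu-miR-34a-3p: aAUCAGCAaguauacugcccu
mmu-miR-34b-3p: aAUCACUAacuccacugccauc
mmu-miR-34c-3p: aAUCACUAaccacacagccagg

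The 3′ strands of Mir34b and Mir34c shared the seed AUCACUA and matched at 17 of 22 positions. The seed of miR-34a-3p was AUCAGCA. Along its length miR-34a-3p matched miR-34b-3p at 15 of 21 positions and miR-34c-3p at 13 of 21. These matches do not rank likeness either. The deposited counts are per hairpin gene, so none of the values below says which strand was sequenced.

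On mm10, Mir34a (ENSMUSG00000065493.1) lies on the plus strand of chromosome 4 from 150068454 to 150068555. The last 17 nt of its hairpin overlap an exon of Gm37795, a transcript of the same strand whose status in GENCODE M21 is provisional. The nearest protein-coding gene that does not overlap it, Gpr157, is 18809 nt away. Mir34b (ENSMUSG00000065492.1) lies on the minus strand of chromosome 9 from 51103562 to 51103645, and Mir34c (ENSMUSG00000065587.1) follows it on that strand from 51103034 to 51103110, with 451 nt between the hairpins. Both lie opposite the coding strand of Btg4, within its introns only. The next coding gene of their own strand, 4833427G06Rik, begins 955 nt beyond Mir34c.

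No Mir34 hairpin shared a stretch of 20 nt with a miRNA gene at another locus. The longest run that Mir34c had in common with any other hairpin was 11 nt, with Mir34b. The longest runs were 12 nt for Mir34a and 11 nt for Mir34b. Only hairpins of miRNA genes were compared, not the whole genome. Reads that mapped to several places had been set aside and enter no gene.

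Mir34a and Mir34c were expressed at similar, moderate levels, and Mir34b was far lower. Mir34c, the downstream hairpin of the cluster, had 19171 counts in replicate 1 and 1729 in replicate 2, which are 1868 and 490 CPM. Its counting intervals ran from 1842 to 1894 CPM and from 468 to 514 CPM. Mir34a, the single-locus member, had 17344 and 2116 counts, or 1690 and 600 CPM, with intervals from 1665 to 1715 CPM and from 575 to 626 CPM. Both genes were thus higher in replicate 1, and for both the intervals of the libraries lay far apart. Mir34b, the upstream hairpin, had 393 and 140 counts, or 38.3 and 39.7 CPM. Its intervals, from 34.7 to 42.3 CPM and from 33.7 to 46.9 CPM, overlapped.

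**Figure D1:**
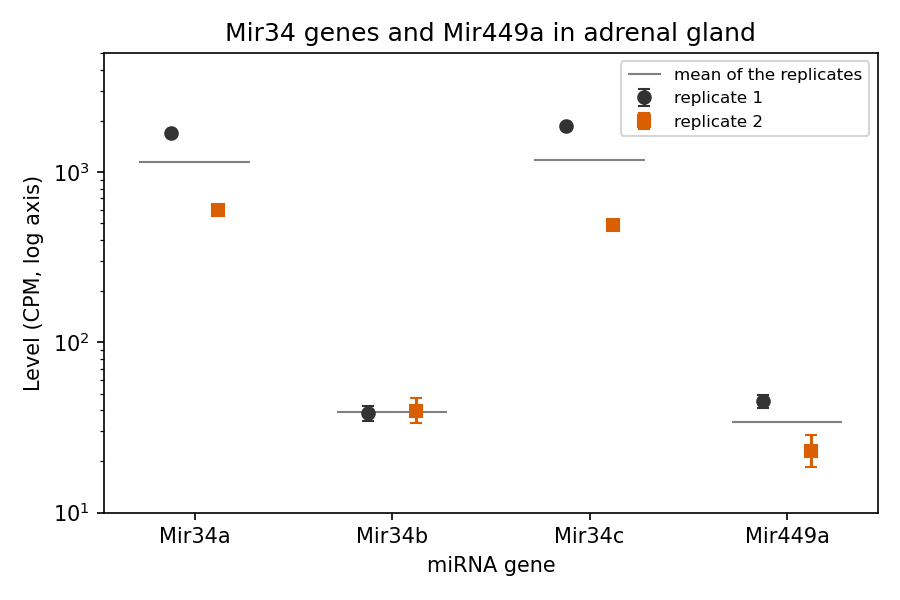
Level in CPM (log axis) of the 3 Mir34 genes and of Mir449a in each adrenal gland library, with 95% Wilson intervals for counting error and the mean of the replicates as a grey line. Mir34a and Mir34c stand well above the others and apart between replicates, from 1868 to 490 CPM for Mir34c, while the 38.3 and 39.7 CPM of Mir34b nearly coincide.

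The mean was 1179 ± 974 CPM for Mir34c (SD, n = 2), 1145 ± 770 CPM for Mir34a and 39.0 ± 1.00 CPM for Mir34b. All 3 passed the detection level of 10 CPM in both replicates, as did 267 of the 2202 miRNA genes. By mean level Mir34c ranked 57th, Mir34a 59th and Mir34b 219th. The ranks of Mir34c were 49 in replicate 1 and 98 in replicate 2, and those of Mir34a were 51 and 91. Mir34b ranked 223 and 211.

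The order of Mir34c and Mir34a was not fixed. In CPM, Mir34c was 1.11 times Mir34a in replicate 1 and 0.817 times in replicate 2, so their means differed by less than the spread between replicates. A miRNA read covers a mature strand, not the hairpin, and CPM carries no length term. Per kb of hairpin, Mir34c led in both libraries, with 24257 against 16567 CPM per kb in replicate 1 and 6369 against 5884 in replicate 2. Mir34b was lowest of the 3 on both scales, at 456 and 473 CPM per kb.

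Together the Mir34 genes took 0.360% of assigned counts in replicate 1 and 0.113% in replicate 2, with intervals from 0.356% to 0.363% and from 0.110% to 0.117%. The mean share was 0.236% ± 0.174 (SD, n = 2). The sum was 3.18 times higher in replicate 1, so the mean describes neither library well.

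For Mir34a and Mir34c, the make-up of this sum moved less than its size. Mir34a gave 47.0% of the Mir34 counts in replicate 1 and 53.1% in replicate 2. Mir34c gave 51.9% and 43.4%. Mir34b gave 1.06% and 3.51%, the largest relative shift of the 3. The Wilson intervals of the libraries did not overlap for any of these shares. For Mir34a they ran from 46.5% to 47.5% and from 51.5% to 54.6%, and for Mir34b from 0.965% to 1.17% and from 2.98% to 4.13%. The chromosome 4 gene and the chromosome 9 cluster therefore contributed about equally in each library.

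**Figure D2:**
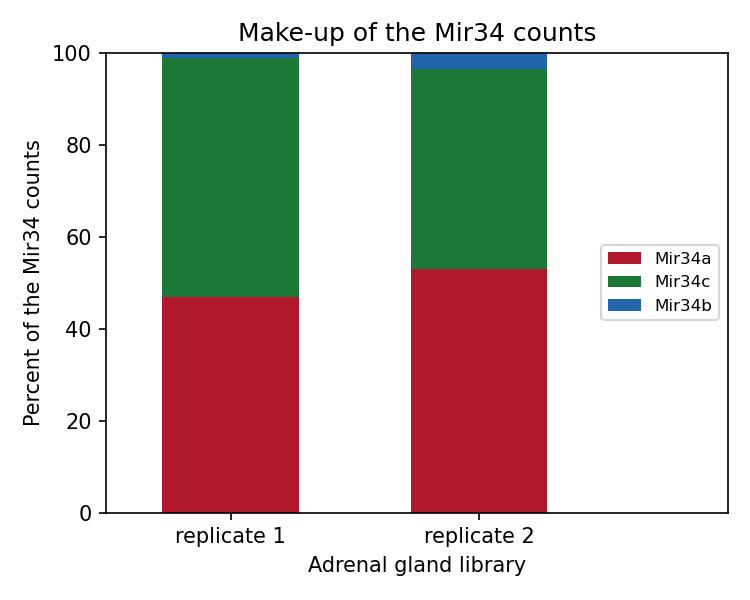
Percent of the summed Mir34 counts from each gene in each adrenal gland library, as stacked bars that add to the whole. Mir34a and Mir34c share nearly all of it, with 47.0% and 51.9% in replicate 1 and 53.1% and 43.4% in replicate 2, and Mir34b is the thin band at the top.

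The 2 hairpins of the cluster were far from equal. Mir34c stood 48.8 times above Mir34b in replicate 1 and 12.4 times above it in replicate 2, both in CPM. Within the cluster Mir34b supplied 2.01% of counts in replicate 1, with an interval from 1.82% to 2.22%, and 7.49% in replicate 2, from 6.38% to 8.77%. Mir34c had the larger count in both libraries.

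As a description of the 2 libraries, Mir34a and Mir34c had more CPM in replicate 1 and Mir34b had nearly the same in both. The log2 ratio of replicate 2 over replicate 1, scaled by TMM, was -1.95 for Mir34c, with an exact binomial 95% interval from -2.02 to -1.88. It was -1.51 for Mir34a, from -1.58 to -1.45. For Mir34b it was 0.04, with an interval from -0.25 to 0.32. In CPM, Mir34c was 3.81 times and Mir34a 2.82 times higher in replicate 1.

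Differences between these libraries were common. An exact two-sided binomial test of each gene with 10 counts or more, with Benjamini-Hochberg adjustment, called 234 of 443 genes, or 52.8%. Of the genes tested, 31.6% were called higher in replicate 1 and 21.2% higher in replicate 2. Among the Mir34 genes 2 of 3 were called, both higher in replicate 1. These ratios were in view when the genes were picked, so nothing is read from that count. The test compares 2 libraries and no conditions.

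The ratios of Mir34a and Mir34c were far from that of the median gene. Across the 277 genes with a mean of 10 CPM or more, the median log2 ratio was -0.14 and the median gene lay 1.32-fold apart. In the order of these ratios, from the most replicate 1-weighted upward, Mir34c stood 4th, Mir34a 8th and Mir34b 176th. Ordered by distance between the libraries in either direction, Mir34c was 7th, Mir34a 15th and Mir34b 261st.

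**Figure D3:**
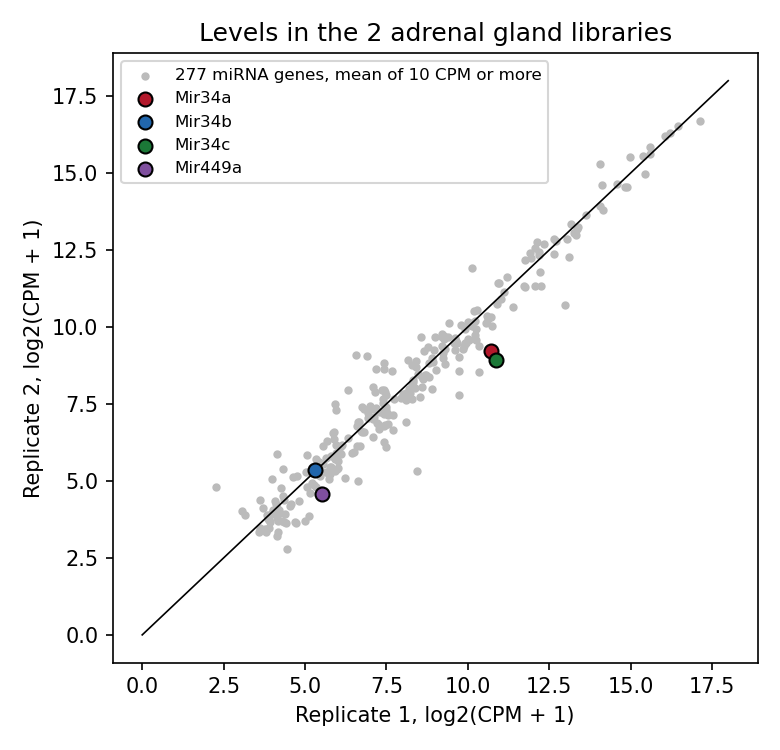
Level in replicate 2 against replicate 1, as log2(CPM + 1), for the 277 miRNA genes with a mean of 10 CPM or more, with the line of equal levels. Mir34a and Mir34c lie side by side below the line at the edge of the cloud, while Mir34b lies on the line at a far lower level.

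The split within the cluster was wide for hairpins so close together. Neighbouring miRNA genes of 1 strand, with at most 10000 nt between them and means of 10 CPM or more, formed 96 pairs. This comparison was chosen after the values of the Mir34 genes were seen. The log2 ratios of Mir34b and Mir34c differed by 1.98, a 3.96-fold difference, against a median of 0.45 over all pairs. It was the second widest, after Mir181a-2 and Mir181b-2 at 2.16. Next came Mir497 and Mir195a at 1.78. Among the 68 pairs formed without genes that share a stretch of 20 nt with another locus, Mir34b and Mir34c were the widest. Their gap in level, 4.92 on the log2 scale of mean CPM, ranked 17 of the 96, with a median of 2.08.

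**Figure D4:**
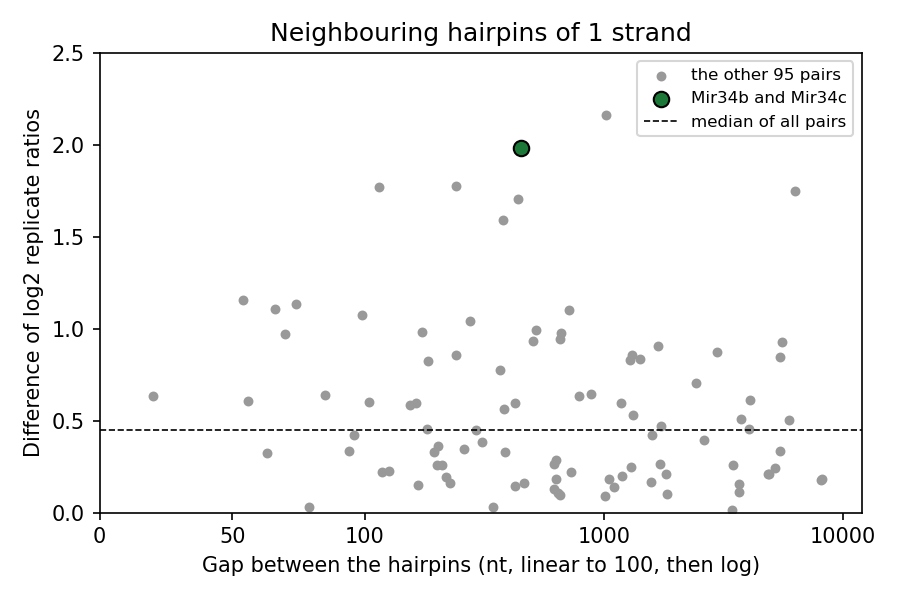
Difference between the log2 replicate ratios of neighbouring hairpins (vertical axis) by the gap between them in nt (horizontal axis, linear to 100 and logarithmic beyond), for 96 pairs. Mir34b and Mir34c, 451 nt apart, stand at 1.98, above all pairs but 1 and far above the median of 0.45.

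The seed relatives were scarce. The Mir449 genes lie within introns of Cdc20b on chromosome 13 and are known from multiciliated cells. Mir449a (ENSMUSG00000065575.1, from 113037534 to 113037624) had 461 and 81 counts, or 44.9 and 23.0 CPM, with a mean of 33.9 ± 15.5 CPM (SD, n = 2). Mir449c had 1 count in replicate 1 and 0 in replicate 2. Mir449b had 0 in both, so its level could reach the limit of 3 counts, which is 0.292 CPM in the deeper library and 0.851 CPM in the other. Mir449b shared no stretch of 20 nt with a miRNA gene at another locus, nor did the other 2.

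Mir449a and Mir34b could not be ordered. Mir449a was above Mir34b in replicate 1, at 44.9 against 38.3 CPM, and below it in replicate 2, at 23.0 against 39.7 CPM. Mir34a exceeded Mir449a 37.6 times in replicate 1 and 26.1 times in replicate 2. The log2 ratio of Mir449a was -0.98, with an exact interval from -1.34 to -0.64, so it too was higher in replicate 1. Of the summed Mir34 and Mir449 counts, Mir449a made up 1.23% and 1.99%.

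Over both libraries, Mir34a and Mir34c were each other's nearest gene. Likeness was measured as the distance between genes in log2(CPM + 1) over the 2 libraries, among all 2202 genes, and it was 0.325 between them. With 2 libraries it says only that level and ratio were alike. After Mir34c, the nearest to Mir34a were Mir132 (1302 and 673 CPM, distance 0.410) and Mir15a (1215 and 772 CPM, distance 0.598). After Mir34a, the nearest to Mir34c were Mir107 (1310 and 372 CPM, distance 0.649) and Mir132 (distance 0.692). Mir107 shares a stretch of 20 nt with 2 other hairpins, so its level is uncertain. Nearest to Mir34b were Mir1249 at 39.6 and 39.7 CPM, Gm23450 at 39.2 and 40.8 CPM and Mir92-2 at 36.6 and 39.1 CPM, of which Mir92-2 shares a stretch with 1 other hairpin.

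Other miRNAs linked to p53 were called in both directions. Of 13 listed as induced by p53 or processed with its help, 12 stood in the tables and 8 were detected. The highest were Mir143 at 25139 ± 566 CPM (SD, n = 2), a smooth muscle miRNA gene, Mir22 at 9199 ± 871 CPM, Mir16-1 at 2336 ± 567 CPM and Mir15a at 993 ± 313 CPM. In replicate 1 Mir34c and Mir34a stood above Mir15a (1215 CPM), and in replicate 2 both stood below it (772 CPM). Of 11 tested, 5 were called higher in replicate 1 and 4 higher in replicate 2, and 2 were not called, where 31.6% and 21.2% of all 443 genes were called in these directions. Their median log2 ratio was -0.20, against -0.17 over the 443 genes tested. Mir107 had the lowest ratio of the list, -1.83, close to that of Mir34c. Mir143 and Mir145a also form the smooth muscle list below, and Mir200c and Mir141 belong to the epithelial list. Values and calls of these genes are the same in both places. Hairpins of 4 of the 12, among them Mir16-1, have a stretch of 20 nt in common with another locus, so their levels are uncertain.

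Of the miRNAs reported to act on p53 itself, all 6 listed were in the tables and 5 were detected. Mir30d stood at 6899 ± 232 CPM (SD, n = 2), Mir125b-2 at 356 ± 2.00 CPM, Mir125b-1 at 200 ± 28.5 CPM and Mir25 at 149 ± 16.4 CPM. The levels of both Mir125b hairpins are uncertain, since 20 nt are common to them. None of the 6 was called higher in replicate 1 and 3 were called higher in replicate 2, beside 31.6% and 21.2% of all genes tested. The median log2 ratio was 0.02, against -0.17 over all genes tested. Mir504, with 12 counts in replicate 1 and 0 in replicate 2, was not called, and the median stayed at 0.02 with its replicate 2 value set to the floor of 3 counts.

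**Figure D5:**
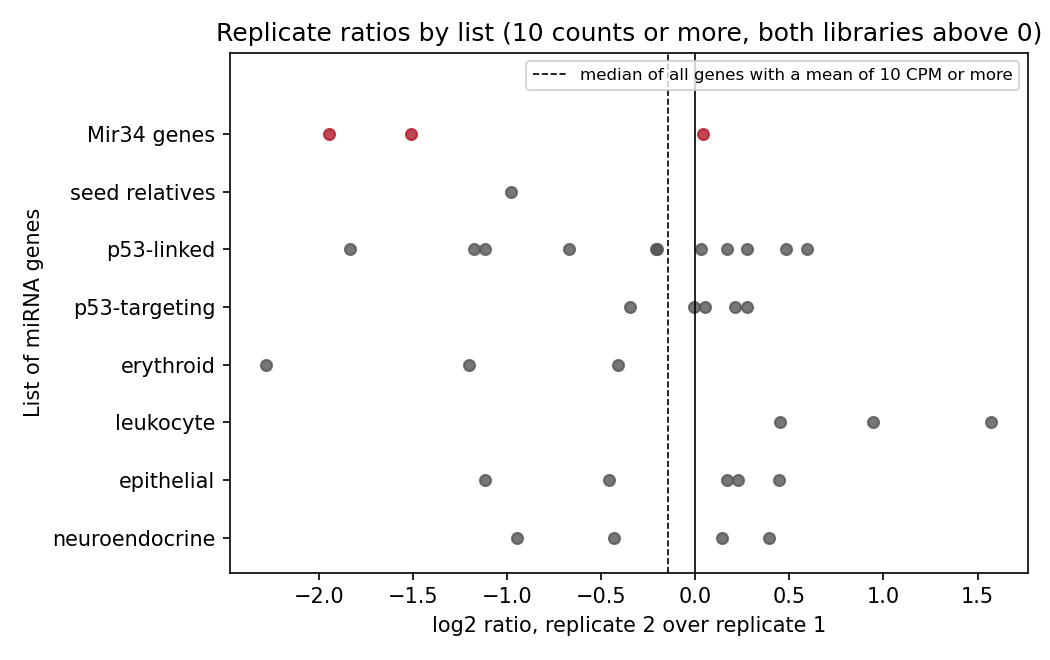
Log2 ratio of replicate 2 over replicate 1 for each gene of 8 lists, with 10 counts or more over both libraries and above 0 in each. The dashed line is the median of all genes with a mean of 10 CPM or more, -0.14. Mir34c and Mir34a lie at -1.95 and -1.51, and the p53-linked genes spread to both sides of 0.

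Markers of some other cell types differed between the libraries along with Mir34a and Mir34c. The 3 erythroid miRNA genes summed to 8370 CPM in replicate 1 and to 1814 CPM in the other library, 4.61 times less. Of them, 2 were called higher in replicate 1, namely Mir451a at 8085 and 1685 CPM and Mir144 at 272 and 119 CPM. Mir486 stood at 13.2 and 9.93 CPM. The 3 leukocyte genes went the other way, with sums of 508 and 876 CPM and all 3 called higher in replicate 2. Over all genes tested, 31.6% were called higher in replicate 1 and 21.2% higher in replicate 2, or 52.8% in either direction. The part of these cells, or of the unequal unmapped share, in the Mir34 difference was not tested. In bulk tissue, fewer cells of a type and less RNA per cell cannot be told apart.

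Markers of epithelium and testis were low in both libraries. Their sums were of the order of Mir34b (38.3 and 39.7 CPM) and Mir449a (44.9 and 23.0 CPM). No list was particular to multiciliated cells. The part of such cells, or of germ cells, in the Mir34 and Mir449 levels was not tested. The 5 epithelial genes of the mir-200 family summed to 48.6 and 43.1 CPM. Of these 5, all tested, 1 was called higher in replicate 1, Mir200c at 13.6 and 6.24 CPM. Over all genes tested, 31.6% were called higher in replicate 1 and 21.2% higher in replicate 2. The 6 genes of the X-linked testis cluster summed to 29.7 and 30.1 CPM. Only 2 of them had enough counts to be tested, and neither was called. Within it Mir741, Mir871 and Mir880 had 0 counts in both libraries, and Mir547 held 19.0 and 21.6 CPM. The 4 neuroendocrine genes summed to 73420 and 80086 CPM, most of it Mir375. Of these 4, Mir7b (4743 and 3557 CPM) and Mir7-1 (479 and 251 CPM) were called higher in replicate 1. The other 2, Mir375 and Mir7-2, were called higher in replicate 2. Mir126a, the only endothelial gene listed, stood at 89916 and 95595 CPM, and the 2 smooth muscle genes summed to 25619 and 26619 CPM. The 3 muscle genes summed to 3.60 and 4.82 CPM. Mir122, the only liver gene listed, stood at 104 and 97.6 CPM.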

How the data were processed

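MicroRNA sequencing of inserts below 30 nt was measured in 2 libraries of mouse adrenal gland. The authors deposited raw counts per miRNA gene, in 1 table per library with 3 columns and no header. Build mm10 and annotation GENCODE M21 are named per the file headers, in the description files beside the tables. Adapter trimming is linked per the labels' protocols. Which aligner and counter were used is not given in the sources used here. The columns were taken, from their sums, as counts without regard to strand, on the gene's strand (used here) and opposite it. The 4 summary lines were left out of library sizes. They hold 50.2% and 66.8% of reads.

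All 2202 identifiers matched GENCODE M21. TMM factors came from edgeR 4.0.16 in R 4.3.3, and DESeq2 1.42.0 size factors were an alternative. Ratios have 0.5 counts added. The binomial test was tested on simulated counts: of 451 genes it called 65% of 100 changed 1.5-fold, 86.5% of 96 changed 3-fold and 2.35% of 255 unchanged. The simulation held counting noise only.

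The members, lists and settings were chosen with earlier results of these data known. The rule for named genes took the Mir34 and Mir449 genes, the 4 highest of each p53 list and the 3 genes nearest to each Mir34 gene over both libraries. Other names are markers, or were chosen after their values were seen. Alternatives covered strand, scaling, filters, counts added, hairpin length and leaving out each replicate. Python 3.11.15, numpy 2.4.6, scipy 1.17.1, pandas 2.3.3 and matplotlib 3.10.9 did the rest.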

Additional observations from a re-analysis of the deposited data

How the results depend on the processing

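No paired analysis was possible because the series holds 1 group. Alternatives were tried on the levels, the family share, the replicate ratios and the count of called genes. Of these values, 32 stayed within the spread that applies and 7 moved. No called ratio changed sign. The 32 include the levels and family shares with a replicate left out. With 2 replicates each value lies nearer to the mean than the SD, so these could not move and say nothing about robustness. Without regard to strand, Mir34b had 45.1 CPM and the log2 ratios became -1.43 for Mir34a and -1.87 for Mir34c. The counts of Mir34a and Mir34c are the same in both columns, and Mir34b had 403 against 393 in replicate 1. What differs is the scaling, since assigned counts in the column without regard to strand were lower, at 8993993 and 3087250. That column shifted the median log2 ratio of 277 genes from -0.14 to -0.03. Over all uniquely mapped reads Mir34b had 36.2 CPM. Per kb of hairpin, in another unit, the means were 11225 CPM for Mir34a, 464.3 for Mir34b and 15313 for Mir34c. Leaving out a replicate gave 600.2 to 1690 CPM for Mir34a, 490.4 to 1868 for Mir34c, 38.3 to 39.7 for Mir34b and 0.113% to 0.360% for the family share. Replicate 2 alone moved the levels of Mir34a and Mir34c by more than 1.5 times against the mean, as replicate 1 alone did for Mir34c, so these means rest on which library is used. The count of called genes ran from 206 to 231 against 234. The share called was 29.5% of 767 genes with no filter on low counts and 69.9% of 322 genes with at least 50 counts, since the number tested changes. For Mir34a and Mir34c the counting intervals are far narrower than the spread between the 2 replicates, so depth does not limit their levels. For Mir34b the counting intervals are wider than that spread, and its 140 counts in replicate 2 limit its ratio.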

Other observations

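On the opposite strand, 10 counts lay at Mir34b in replicate 1, or 2.48% of its counts without regard to strand, and 0 in replicate 2. Mir34a and Mir34c had 0 in both libraries. Of 415 miRNA genes with 10 counts or more and no miRNA gene annotated opposite them, 10 had more than 3 opposite-strand counts in replicate 1, and 4 had as many as Mir34b or more, Mir34b included.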
